A study of Mus musculus with 6 samples.

Results

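The genes of the cytosolic ribosomal proteins were read out of an RNA sequencing table of inguinal white adipose tissue (a fat pad under the skin of the groin) from mice. They were taken by symbol: Rpl or Rps followed by a number and at most a short suffix, plus Rplp0, Rplp1, Rplp2 and Rpsa, with a mean of at least 1 over the 6 libraries. That gave 87 of the 25894 genes in the table, 52 of the large subunit and 35 of the small subunit, and all 87 were among the 22290 genes tested. Of 89 symbols of this form in the name table, 87 had a row, and none of those rows fell below the minimum. The lowest member was Rpl32l, with a mean value of 1.51. The annotation used here lists 82 of the 87 as protein-coding and Rpl32l, Rpl6l, Rps3a2, Rps3a3 and Rps4l as processed pseudogenes.

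Mice named SF 8w-SR 2w went through 8 weeks of sleep fragmentation followed by 2 weeks of sleep recovery (n = 3). Mice named Control carry only the treatment label control (n = 3). All were of the strain C57 BL/6N with no transgene named, and all were fasted for 10 h before the fat was taken. The design text gives female mice of 15 weeks of age without saying at which point of the protocol, and each library came from 1 mouse.

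Each ribosome joins a small subunit, which decodes the messenger RNA, to a large subunit, which forms the peptide bond. A subunit needs nearly all of its proteins in equal number, and the messenger RNAs of these proteins mostly begin with a run of pyrimidines, the terminal oligopyrimidine or TOP motif, through which mTORC1 and Larp1 control their translation together. In fat, as elsewhere, these transcripts are among the most abundant of the cell, and mammalian genomes carry many processed pseudogenes copied from them.

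Values are read counts that the authors had divided by 1 size factor per library, and they are given in the order of mice 1, 2 and 3 of each group. Recovered whole reads ranged from 15610201 to 19703569 per library. Before any grouping of genes, 2 libraries stood apart: on the first principal component of all genes tested (42.3% of the variance) Controls 2 and 3 lay at 116.2 and 111.5, while the SF 8w-SR 2w mice lay at -90.6, 8.82 and -69.0 and Control 1 at -77.0. All 12 adipocyte markers were above 0 in every library, and 10 of them were higher in SF 8w-SR 2w mice; their sums were 975978, 502348 and 555012 in SF 8w-SR 2w mice, against 786396, 406871 and 484464 in Control mice. Summed values of the 15 B and plasma cell markers, of which 0 were higher and 15 were lower in SF 8w-SR 2w mice, were 3506, 37861 and 1874 in SF 8w-SR 2w mice, against 2167, 93702 and 23849 in Control mice. The markers at 0 included Cr2 and Pax5 in SF 8w-SR 2w 1, Blk and Fcer2a in SF 8w-SR 2w 3, and Fcer2a and Pax5 in Control 1. Summed mammary epithelium markers, 13 of 14 of them higher in SF 8w-SR 2w mice and none at 0, were 37177, 48003 and 58775 in SF 8w-SR 2w mice, against 57180.3, 21172 and 25911 in Control mice. Of 18 cell cycle markers 0 were higher and 18 lower, 8 of them at an unadjusted limma p under 0.05, with sums of 2149, 6704 and 2377 in SF 8w-SR 2w mice, against 3457, 17984 and 8610.0 in Control mice. Of 15 T and NK cell markers 1 was higher and 14 lower, with sums of 749, 8047 and 711 in SF 8w-SR 2w mice, against 1116, 7035 and 2275 in Control mice, and no marker of either list was at 0.

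No ribosomal protein gene passed the threshold between SF 8w-SR 2w and Control mice. With limma on log2(value + 1) and Benjamini-Hochberg adjustment over all genes, 0 of 87 members were called at an FDR of 0.05, against 0% of all genes, and the smallest adjusted p of a member was 0.697. At an unadjusted limma p under 0.05, 9 members were higher (10.3%, against 3.24% of all genes) and 2 were lower (2.3%, against 2.14% of all genes). Of the 9, 8 belong to the large and 1 to the small subunit, and each subunit had 1 of the 2 lower ones. edgeR and DESeq2 on the recovered reads also called 0 members and 0% of all genes. At an unadjusted p under 0.05, edgeR had 3 members higher (3.45%, against 1.88% of all genes) and 1 lower (1.15%, against 2.69%), and DESeq2 had 3 higher (3.45%, against 2.05%) and 2 lower (2.3%, against 3.57%). limma-voom with quality weights, in which Control 1 had the lowest weight (0.283, against 0.871 to 1.73 for the other libraries), called 0 members and 0% of all genes as well. It had 32 members higher (36.8%, against 13.6%) and 2 lower (2.3%, against 10.4%) at an unadjusted p under 0.05, and its smallest adjusted p of a member was 0.0903, against 0.370 to 0.904 in the other alternatives that kept all 6 libraries.

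Without regard to a threshold, most members lay on the higher side. The fitted log2 difference, SF 8w-SR 2w minus Control, was above 0 for 72 of the 87 (82.8%, against 51.6% of all genes), with 46 of 52 large subunit and 26 of 35 small subunit genes. Its median was 0.35 over the members, against 0.02 over all genes tested, and it ran between -0.86 for Rpl17 and 2.22 for Rpl7a. A difference of at least 1 was found for 18 members (20.7%, against 11.7%) and a difference of -1 or less for 0 (0%, against 7.45%). In whole tissue, fewer cells of a type and less RNA per cell cannot be told apart.

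That position rested on Controls 2 and 3. The median deviation of the members from their own mean over 6 libraries, in log2, was 0.51, 0.27 and -0.24 in SF 8w-SR 2w mice, against 0.44, -0.21 and -0.75 in Control mice. Control 1 lay within the range of the SF 8w-SR 2w mice, and the between-mouse SD within groups of this median was 0.50. In 39 members (44.8%, against 20.6% of all genes) Controls 2 and 3 were both below all the other libraries, and in 2, Rpl17 and Rps15a, both were above them (2.3%, against 18%). Without Control 1, the members above 0 numbered 77 (88.5%, against 51.7%) and their median difference was 0.61; without Controls 2 and 3 they numbered 8 (9.2%, against 49.8%) and the median was -0.29. Without Control 3 the median was 0.07, and without SF 8w-SR 2w 1 it was 0.13. The B and plasma cell marker sums were higher in Controls 2 and 3 and SF 8w-SR 2w 2 than in the other libraries. The mammary marker sums were lowest in Controls 2 and 3. The adipocyte sums were lowest and the cell cycle sums highest in Controls 2 and 3, and the T and NK cell sums were highest in SF 8w-SR 2w 2 and Control 2. With the B and plasma cell marker score as a covariate the members' median was 0.19. Which of B and plasma cells, mammary tissue, adipocytes, dividing cells and T or NK cells had a part in the members' values was not tested.

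**Figure D1:**
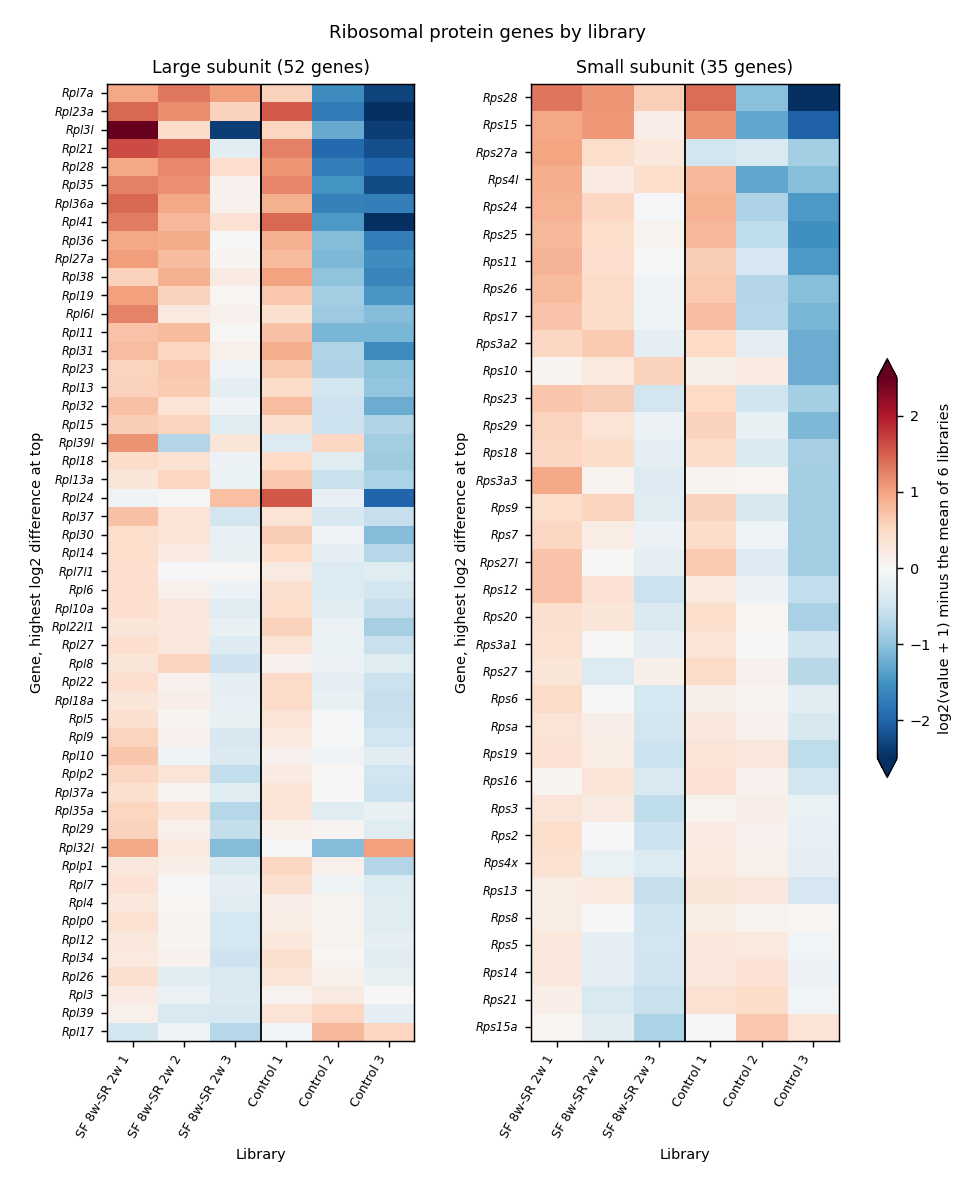
Each row is 1 ribosomal protein gene, ordered within its subunit by the log2 difference, and each column is 1 library; colour is log2(value + 1) minus the gene's mean over the 6 libraries. Most upper rows of both panels are blue in Controls 2 and 3 and red or pale in Control 1 and the SF 8w-SR 2w mice. Among the upper rows, Rpl3l is also blue in SF 8w-SR 2w 3, and Rps27a is also blue in Control 1. Rpl17 and Rps15a at the bottom run the other way.

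Across members, the ratios between libraries showed the same division. The interquartile range of the members' log2 ratio was 0.19 between SF 8w-SR 2w 3 and Control 1, 0.28 between SF 8w-SR 2w 1 and Control 1, 0.31 between SF 8w-SR 2w 2 and Control 1, and 0.43 between Controls 2 and 3. It lay between 1.12 and 1.34 for each pair that set Control 2 or 3 against one of the other 4 libraries. All genes tested showed the same division, at wider ranges: 0.70 to 0.90 between an SF 8w-SR 2w mouse and Control 1, and 1.36 to 1.66 for each pair that set Control 2 or 3 against one of the other 4. Within the SF 8w-SR 2w group, mouse 3 was below both others in 80 members (92%, against 28.4% of all genes).

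Together the members took 3.42%, 3.62% and 2.32% of all values in SF 8w-SR 2w libraries, against 3.42%, 2.54% and 1.76% in Control libraries. The groups overlap, with Control 1 equal to SF 8w-SR 2w 1 at this rounding and SF 8w-SR 2w 3 below Control 2.

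The medians of the subunits lay close together, but their upper ends differed. The 75th percentile of the log2 difference was 1.04 for the large and 0.68 for the small subunit. Of the 18 members with a difference of at least 1 (20.7%, against 11.7% of all genes), 14 are of the 52 large and 4 of the 35 small subunit genes. The 14 include the pseudogene Rpl6l and Rpl3l, which had 153 in SF 8w-SR 2w 1 and at most 6.39 elsewhere, and the 4 include the pseudogene Rps4l. Without Controls 2 and 3, the differences of Rpl36a, Rpl28, Rpl23a, Rpl27a, Rpl21, Rpl11 and Rps4l fell below 0. Those of Rps27a, Rpl7a, Rpl6l and Rpl3l did not. The median log2 difference was 0.29 over the 52 large subunit genes and 0.35 over the 35 small subunit genes, and the sign of this gap turned when Control 3 or SF 8w-SR 2w 1 was left out. Median deviations of the large subunit were 0.53, 0.27 and -0.22 in SF 8w-SR 2w mice, against 0.45, -0.28 and -0.72 in Control mice. Those of the small subunit were 0.49, 0.24 and -0.31 in SF 8w-SR 2w mice, against 0.37, -0.0038 and -0.84 in Control mice. The large minus small gap was therefore 0.04, 0.04 and 0.09 in SF 8w-SR 2w mice, against 0.07, -0.28 and 0.12 in Control mice, with Control 2 the library apart. As shares of all values, the large subunit took 1.89%, 2.03% and 1.30% in SF 8w-SR 2w libraries, against 1.89%, 1.33% and 0.944% in Control libraries. The small subunit took 1.53%, 1.6% and 1.02% in SF 8w-SR 2w libraries, against 1.52%, 1.21% and 0.815% in Control libraries. The large to small ratio of these shares was 1.24, 1.27 and 1.27 in SF 8w-SR 2w libraries, against 1.24, 1.09 and 1.16 in Control libraries. It was lower in Controls 2 and 3 than in the other 4 libraries, and Control 1 lay at the level of the SF 8w-SR 2w mice.

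**Figure D2:**
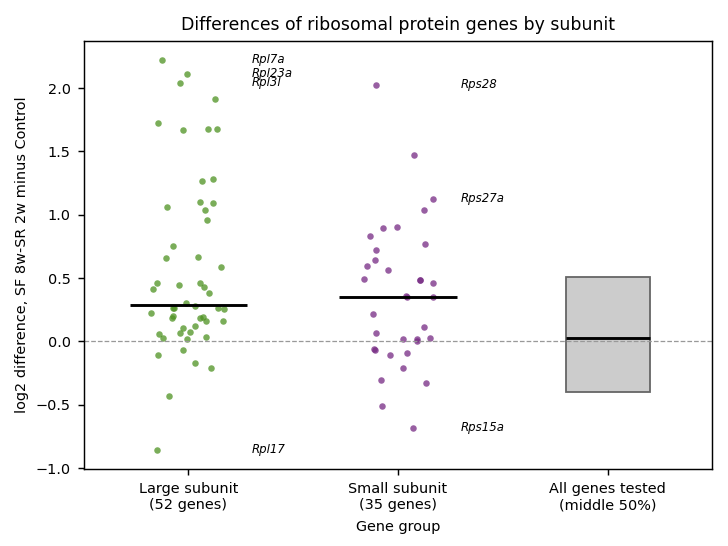
The vertical axis is the fitted log2 difference, SF 8w-SR 2w minus Control; points are single genes of the large and the small subunit, and black lines are medians (0.29 and 0.35). The grey box spans the middle of the distribution of all genes tested around its median of 0.02; both subunits reach above it, with Rpl7a at 2.22 and Rps28 at 2.03, and few genes lie below it.

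Start regions are shown for pyrimidine runs near the annotated start. The members were chosen as the 10 with the smallest unadjusted limma p and the 5 with the lowest difference. Of the members so chosen, Rps27a, Rpl17, Rpl23a, Rpl21, Rpl6l and Rps14 are not shown. The regions come from RefSeq (GRCm38.p6), which held a promoter for 63 of the 87 members. Each is 60 bases long, 30 before and 30 after the annotated start, on the strand of the gene, and capitals mark runs of at least 8 pyrimidines that open with C. The windows lie at chr2:26910777-26910836 (Rpl7a, plus strand), chrX:134585624-134585683 (Rpl36a, plus), chr7:4792935-4792994 (Rpl28, plus), chr7:109519165-109519224 (Rpl27a, plus), chr7:118116118-118116177 (Rps15a, minus), chr2:180257349-180257408 (Rps21, plus) and chrX:37085193-37085252 (Rpl39, minus).
Rpl7a: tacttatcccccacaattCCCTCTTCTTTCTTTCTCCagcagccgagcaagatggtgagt
Rpl36a: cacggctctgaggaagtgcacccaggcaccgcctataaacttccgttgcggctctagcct
Rpl28: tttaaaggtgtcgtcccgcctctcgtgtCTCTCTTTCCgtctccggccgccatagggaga
Rpl27a: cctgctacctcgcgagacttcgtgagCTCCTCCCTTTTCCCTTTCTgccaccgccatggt
Rps15a: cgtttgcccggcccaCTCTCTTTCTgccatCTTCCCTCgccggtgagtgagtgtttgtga
Rps21: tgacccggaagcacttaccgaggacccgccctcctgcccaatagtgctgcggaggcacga
Rpl39: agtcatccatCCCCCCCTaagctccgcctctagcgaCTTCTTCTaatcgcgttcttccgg
Such a run was found in 5 of these 7 windows, among members that were higher and members that were lower in SF 8w-SR 2w mice. A marked run can lie anywhere in its window and need not begin at the start. The marks therefore do not show whether a TOP motif is present or absent.

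Searched from 20 bases before to 50 after the start, on the gene's strand, such a run was in 74.6% of the 63 members' promoters, against 20% of 27025 promoters of all genes. The median log2 difference was 0.36 for the 47 members with a run and 0.23 for the others. In windows of 250 bases before to 50 after the start, read on both strands, CCGGAA, the core letters of the Ets and Gabpa motif, was in 50.8% of the members' promoters, against 15.2% of all. GGGCGG, the core of the Sp1 motif, was in 58.7% against 35.9%, TATAAA in 11.1% against 14.2%, and AAGATGGC, letters of the Yy1 motif, in 7.94% against 2.88%. The strings were searched separately, so matches may overlap. Members with CCGGAA had a median log2 difference of 0.36, and those without had 0.26. For the other strings the order was the opposite, with 0.26 with GGGCGG and 0.40 without, 0.07 with TATAAA and 0.35 without, and 0.10 with AAGATGGC and 0.35 without. Of the 63 members, 32 had CCGGAA and 37 had GGGCGG, but only 7 had TATAAA and 5 had AAGATGGC, so the last 2 medians rest on few genes.

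Among large subunit proteins, Rpl7a (ENSMUSG00000062647), a structural protein of the large subunit, had the highest difference. Its values were 989, 1266 and 1036 in SF 8w-SR 2w mice, against 748, 168 and 100.3 in Control mice. The groups did not overlap, but Control 1 stood near the SF 8w-SR 2w mice and far above the other Controls, and with related pseudogene rows added the groups overlapped. The means were 1097 ± 148 in SF 8w-SR 2w mice and 339 ± 356 in Control mice (SD, n = 3 each), and the log2 difference was 2.22 (SE 0.61), with this and the following SEs from limma. Groups without overlap, higher in SF 8w-SR 2w mice, were found in 2 members, Rps27a and Rpl7a (2.3%, against 5.02% of all genes), and lower in 1, Rpl17 (1.15%, against 3.58%).

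Rpl23a, which sits at the exit of the peptide tunnel and receives targeting factors such as the signal recognition particle, had 4747, 3932 and 2608 in SF 8w-SR 2w mice, against 5096, 524 and 223 in Control mice. Control 1 was the highest library of the 6 while Control 3 was the lowest, and the log2 difference was 2.12 (SE 0.91). Rpl28, another structural protein, had 4604, 5450.1 and 3165 in SF 8w-SR 2w mice, against 5055, 713 and 608 in Control mice, a log2 difference of 1.72 (SE 0.68). Rpl36a, which contacts the tRNA in the exit site, had 3469, 2521 and 1386 in SF 8w-SR 2w mice, against 2372, 399 and 391 in Control mice, a log2 difference of 1.68 (SE 0.65). In Rpl23a, Rpl28 and Rpl36a alike, Controls 2 and 3 were below every other library and Control 1 was not.

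Rpl27a, a structural protein of the large subunit, had 9285, 7755 and 4733 in SF 8w-SR 2w mice, against 7780.4, 2063 and 1533 in Control mice, with a log2 difference of 1.26 (SE 0.55). Rpl21, likewise a structural protein, had 1719, 1547 and 463 in SF 8w-SR 2w mice, against 1326, 144 and 120.3 in Control mice, with a log2 difference of 1.91 (SE 0.85). Rpl6l, annotated as a processed pseudogene, had 1176, 584 and 537 in SF 8w-SR 2w mice, against 652, 265 and 233 in Control mice, with a log2 difference of 1.06 (SE 0.44). These 3 repeat the pattern of low Controls 2 and 3. The small subunit had it too: Rps28, a protein of the mRNA exit region that was chosen after its values were seen, had 1452, 1228 and 862 in SF 8w-SR 2w mice, against 1508, 277 and 53.5 in Control mice, with a log2 difference of 2.03 (SE 0.93).

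**Figure D3:**
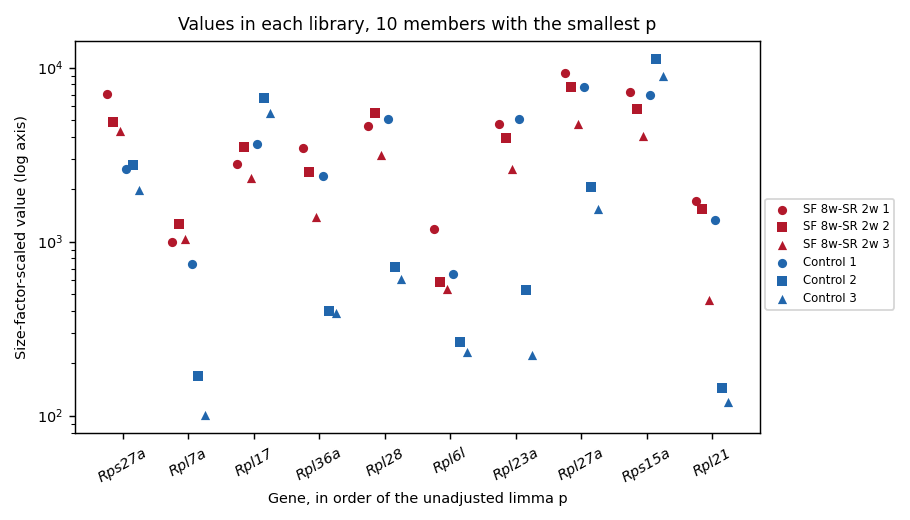
The vertical axis is the size-factor-scaled value on a log scale, and the horizontal axis gives the 10 members with the smallest unadjusted limma p; red marks are SF 8w-SR 2w mice, blue marks are Controls, and the marker shape is the mouse number. In 7 of the 10 genes the blue square and triangle (Controls 2 and 3) lie below all other marks while the blue circle (Control 1) does not; Rps27a, Rpl17 and Rps15a differ from that.

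Rps27a (ENSMUSG00000020460) had the smallest unadjusted p of the members, 0.00198, and a different pattern. It encodes ubiquitin fused to a small subunit protein and is a source of ubiquitin in the cell. Its values were 7086, 4877 and 4301 in SF 8w-SR 2w mice, against 2607, 2750.2 and 1988 in Control mice. All 3 Controls, Control 1 included, were below every SF 8w-SR 2w mouse. The means were 5421.7 ± 1470.0 in SF 8w-SR 2w mice and 2449 ± 405 in Control mice (SD, n = 3 each), the log2 difference was 1.13 (SE 0.27), and the limma adjusted p was 0.697. Without Controls 2 and 3 the difference was 1.02, so here the direction does not rest on them.

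The rows of its pseudogenes went the other way. Related pseudogene rows, those sharing at least 50 stretches of 40 bases with the transcript, summed to 406, 486 and 427 in SF 8w-SR 2w mice, against 999.7, 1104 and 809 in Control mice, a log2 difference of -1.13. Most of this was Gm8430, a processed pseudogene on chromosome 6, with 255, 336 and 349 in SF 8w-SR 2w mice, against 832, 971 and 699.6 in Control mice and a log2 difference of -1.41 (SE 0.26). Its share of the sum of Rps27a and Gm8430 was 3.47%, 6.45% and 7.51% in SF 8w-SR 2w mice, against 24.2%, 26.1% and 26% in Control mice. The shares do not overlap, and the 3 Controls lie within 2 percentage points of each other. With the related rows added, Rps27a came to 7493, 5364 and 4728 in SF 8w-SR 2w mice, against 3607, 3855 and 2797 in Control mice, a log2 difference of 0.76 with a limma adjusted p of 0.698. The sum still did not overlap between the groups.

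The first 90 coding bases of Rps27a (chromosome 11) and of the pseudogene (chromosome 6), from GENCODE M21 transcripts on GRCm38, are shown because the sequences are nearly the same. The capital marks the single difference between them, A71G, counted from 1 at the A of the start codon with the base of Rps27a first.
Rps27a: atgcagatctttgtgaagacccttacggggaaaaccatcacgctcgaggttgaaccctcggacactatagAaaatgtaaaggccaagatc
Gm8430: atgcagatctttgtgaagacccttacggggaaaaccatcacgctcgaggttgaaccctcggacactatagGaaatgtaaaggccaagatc
Over the whole coding sequence 470 of 471 bases were identical (99.79%), with a longest identical run of 400 bases. Reads within that run cannot be told apart by sequence, so the counting could split them between both rows and the values of both are uncertain.

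**Figure D4:**
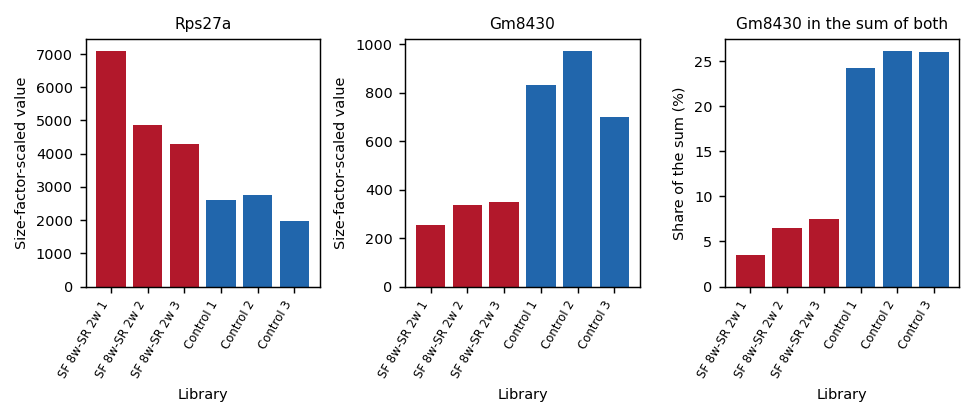
Bars give the size-factor-scaled value of Rps27a (left) and of its pseudogene Gm8430 (middle) and the share of Gm8430 in the sum of both (right, in percent) for each library, red for SF 8w-SR 2w mice and blue for Controls. Rps27a is higher and Gm8430 lower in all 3 SF 8w-SR 2w libraries, and the share is 3.47% to 7.51% in them and 24.2% to 26.1% in Controls.

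The members at lower levels in SF 8w-SR 2w mice were led by Rpl17 (ENSMUSG00000062328), which lines the peptide exit tunnel. Its values were 2775, 3476 and 2320.4 in SF 8w-SR 2w mice, against 3625, 6680.4 and 5499.8 in Control mice. The groups did not overlap, with the gap to Control 1 narrow, and the log2 difference was -0.86 (SE 0.29). Related pseudogene rows held 67.7% of the sum over both, with 9913, 7001 and 6697 in SF 8w-SR 2w mice, against 10956, 9136 and 7296 in Control mice, and with them added the log2 difference was -0.43. The sums over both were 12689, 10478 and 9017 in SF 8w-SR 2w mice, against 14581, 15816 and 12795 in Control mice. They still did not overlap, by a narrow gap. The related rows alone overlap between the groups, and within them Rpl17-ps3 had a log2 difference of -0.55 (SE 0.24) and Rpl17-ps10 one of 0.10 (SE 0.33).

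Rps15a, a small subunit protein that binds the ribosomal RNA, had 7213, 5813 and 4033 in SF 8w-SR 2w mice, against 7001, 11264 and 8934 in Control mice, with a log2 difference of -0.69 (SE 0.30). Controls 2 and 3 were the highest libraries, and Control 1 was below SF 8w-SR 2w 1. Rps21, among the smallest proteins of that subunit, had 3167, 2174 and 1938 in SF 8w-SR 2w mice, against 3676, 3922 and 2694 in Control mice, with a log2 difference of -0.51 (SE 0.27). Rpl39, a small protein inside the exit tunnel, had 6586, 4689 and 4622 in SF 8w-SR 2w mice, against 7680.2, 8769 and 5201 in Control mice, with a log2 difference of -0.43 (SE 0.28). Rps14, a protein of the small subunit platform that is linked to anaemia in human patients who lack a copy, had 15728, 11151 and 9274 in SF 8w-SR 2w mice, against 16002, 17008 and 11841 in Control mice, with a log2 difference of -0.33 (SE 0.30). In Rps21, Rpl39 and Rps14 the groups overlap.

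Per kb of transcript, the most abundant members were Rplp1, Rps14, Rplp0, Rps24 and Rpl26, with mean levels per kb of 26125, 22615, 21752, 18547 and 18373. Per kb of coding length the order was Rpl39 (40902), Rplp1 (38118), Rpl41 (35408), Rps14 (29803) and Rplp0 (27976), so Rps24 (24776) and Rpl26 (22217) left the first 5. The proteins of Rplp0, Rplp1 and Rplp2 form the stalk that recruits elongation factors. Rplp1 had 15246, 13982 and 9814 in SF 8w-SR 2w mice, against 18002, 13602 and 7572 in Control mice, and its log2 difference was 0.06 (SE 0.36). Rplp0 had 23828, 19174 and 13496 in SF 8w-SR 2w mice, against 20697, 19381 and 14879.5 in Control mice, and its log2 difference was 0.02 (SE 0.32). Rplp2 had 7092, 6187 and 3226 in SF 8w-SR 2w mice, against 5720.2, 5003 and 3546 in Control mice, and its log2 difference was 0.16 (SE 0.34). All 3 stalk genes overlap fully between the groups, and their differences are smaller than their errors.

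Rps24, a small subunit protein whose mutation causes Diamond-Blackfan anaemia in human patients, had 15238, 11907 and 8151 in SF 8w-SR 2w mice, against 15183, 4858 and 3084 in Control mice. It was low in Controls 2 and 3 only, with a log2 difference of 0.90 (SE 0.53). Rpl26, which sits near the tunnel exit, had 12420.2, 7924 and 7249 in SF 8w-SR 2w mice, against 11759, 10321 and 8313 in Control mice, with no such fall in Controls 2 and 3 and a log2 difference of -0.17 (SE 0.29). Genes of like abundance thus differed in whether they were low in these Controls.

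Of the members with roles outside the ribosome, Rpl5 and Rpl11 bind 5S rRNA and, when free, the p53 regulator Mdm2. Rpl11 had 5959, 6286 and 3688 in SF 8w-SR 2w mice, against 6024, 1634 and 1632 in Control mice, with a log2 difference of 1.03 (SE 0.48). Its partner Rpl5 had 13288, 10604 and 8964 in SF 8w-SR 2w mice, against 12590.3, 9829.6 and 6904 in Control mice, with a log2 difference of 0.19 (SE 0.30). Controls 2 and 3 were far below Control 1 in Rpl11 and much closer to it in Rpl5, although the proteins enter the subunit together. Rps6, the substrate of S6 kinase, had 15099, 10628 and 7989 in SF 8w-SR 2w mice, against 11919.9, 11339 and 9007 in Control mice, with a log2 difference of 0.02 (SE 0.30). Rpsa, also known as the laminin receptor, had 20334, 17989.7 and 11616 in SF 8w-SR 2w mice, against 19296, 17353 and 12134 in Control mice, with a log2 difference of 0.02 (SE 0.33). In both the groups overlap and the difference is smaller than its error.

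Paralogs were compared with their partners per kb of transcript and by library. Rpl3l, the striated muscle paralog of Rpl3, had 153, 6.07 and 0 in SF 8w-SR 2w mice, against 6.39, 1.13 and 0 in Control mice. The summed skeletal muscle markers were 102318, 2781 and 761 in SF 8w-SR 2w libraries, against 1684, 13849 and 629 in Control libraries, with Ckm and Myh4 at 0 in SF 8w-SR 2w 3 and 7 markers (Atp2a1, Ckm, Myh1, Myh2, Myh4, Mylpf and Tnnt3) at 0 in Control 3. Rpl3l was highest in the library highest in these markers and at 0 in the lowest libraries, SF 8w-SR 2w 3 and Control 3, but it was low in Control 2. The part of muscle in the Rpl3l values was not tested. Without SF 8w-SR 2w 1 and Control 2, the libraries highest in these markers, the Rpl3l difference was -0.03, against 2.04 (SE 1.65) with all 6. Rpl3 itself had 14862, 11629 and 10069 in SF 8w-SR 2w mice, against 13693, 15059.8 and 13034 in Control mice, with a log2 difference of -0.21 (SE 0.27), and a mean level of 16002 per kb, against 26.9 per kb for Rpl3l.

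Rpl39l, best known from the testis in mouse, had 51.8, 13.7 and 28.9 in SF 8w-SR 2w mice, against 18.1, 33.9 and 12.3 in Control mice, and averaged 48.1 per kb, against 10225 per kb for Rpl39. Rpl22l1 had 844, 822 and 602 in SF 8w-SR 2w mice, against 1021, 619 and 384 in Control mice, and its partner Rpl22 had 5498, 4457 and 3514 in SF 8w-SR 2w mice, against 5759.6, 3454 and 2836 in Control mice. Per kb of transcript the means were 1363 and 2077, on transcripts of 525 and 2048 bases. Per kb of coding length they were 1971 and 11076, so the gap between this pair depends on the length used. The log2 differences were 0.26 (SE 0.36) and 0.20 (SE 0.31). Rpl7l1 had 1532, 1123 and 1179 in SF 8w-SR 2w mice, against 1345, 908 and 927 in Control mice, with a log2 difference of 0.28 (SE 0.26), and averaged 892 per kb. Rpl7 had 18809.7, 14125 and 12439 in SF 8w-SR 2w mice, against 19421, 13510.1 and 11632 in Control mice, with a log2 difference of 0.04 (SE 0.31), and averaged 17887 per kb.

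Rps27l had 1794, 1106 and 935 in SF 8w-SR 2w mice, against 1721, 865 and 598 in Control mice, and averaged 2344 per kb. Rps27 had 6388, 4126 and 5714 in SF 8w-SR 2w mice, against 7222, 5605 and 3229 in Control mice, and averaged 15597 per kb. Their log2 differences were 0.35 (SE 0.40) and 0.07 (SE 0.33). Rps4l, annotated as a transcribed processed pseudogene, had 535, 328 and 388 in SF 8w-SR 2w mice, against 498, 115 and 136 in Control mice, and averaged 422 per kb. Rps4x, the X-linked partner, had 18176, 12487 and 10959 in SF 8w-SR 2w mice, against 16615, 15266 and 11828 in Control mice, and averaged 14587 per kb. Rps4l was low in Controls 2 and 3, with a log2 difference of 1.04 (SE 0.52), and Rps4x was not, with -0.09 (SE 0.30). Rpl10, which joins the large subunit late in its assembly, had 18492, 10581 and 8863 in SF 8w-SR 2w mice, against 12264, 10618 and 9518 in Control mice, with a log2 difference of 0.16 (SE 0.32); its autosomal paralog was not analysed here.

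Pseudogene rows were counted for the other members as well. There were 407 related rows for 75 members, and they took 0.276%, 0.294% and 0.196% of all values in SF 8w-SR 2w libraries, against 0.294%, 0.215% and 0.147% in Control libraries. For 53 members the related rows summed to a mean of at least 100. In 42 of the 53 the summed rows and the member differed in the same direction, with medians of 0.28 for the rows and 0.26 for the members and a Spearman rho of 0.73 across the 53, which share reads, libraries and sequence. Of the 53, Rps27a was the member whose rows lay furthest on the opposite side. Rps13, a small subunit protein, had 4149, 4312 and 2463 in SF 8w-SR 2w mice, against 4507, 4447 and 2736 in Control mice, while its related rows had 266, 449 and 436 in SF 8w-SR 2w mice, against 794, 926 and 615 in Control mice, a log2 difference of -1.04; it was chosen after its values were seen.

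For some members the related rows held more than the gene itself: 97.8% of the sum for Rps10, 67.7% for Rpl17, 57.3% for Rpl7a, 55.2% for Rpl24 and 54.8% for Rpl21. Rps10, chosen here for that share, had 40.4, 45.5 and 57.8 in SF 8w-SR 2w mice, against 42.6, 44.1 and 15.6 in Control mice. Compared with these, its sums with the related rows were 3136, 2321 and 1651 in SF 8w-SR 2w mice, against 2631, 977 and 725 in Control mice. With the rows added, the log2 difference was 1.45 for Rpl7a, 1.54 for Rpl23a and 1.58 for Rpl21, and Controls 2 and 3 were still the lowest libraries in each of these 3. The sums for Rpl7a were 1919, 2742 and 2044 in SF 8w-SR 2w mice, against 2408, 615 and 353 in Control mice, so that Control 1 lay above SF 8w-SR 2w 1 and 3 and the separation of the groups was lost. Among 86 single pseudogene rows with a mean of at least 50, the share in the sum with the gene was without overlap higher in SF 8w-SR 2w mice in 5 and lower in 12. Such shares were not counted for other genes, so these counts have no background. Gm8430 was among the 12, with a log2 ratio of group mean shares of -2.13, and Rps18-ps3 had a lower one, -2.32.

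**Figure D5:**
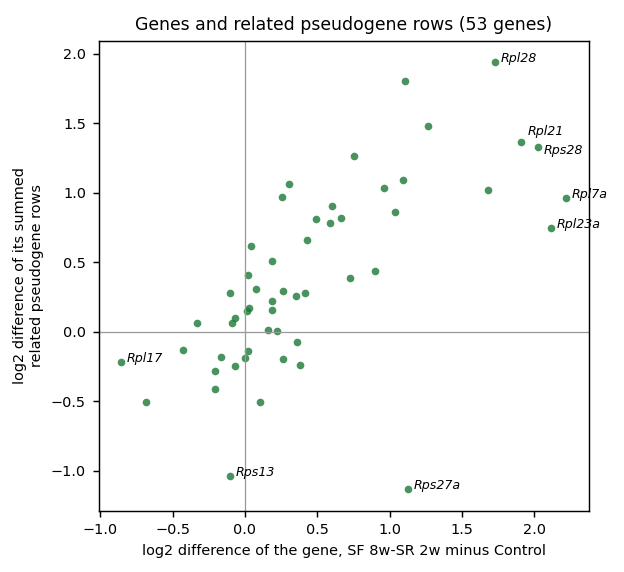
Each point is 1 of 53 members; the horizontal axis is its own log2 difference, SF 8w-SR 2w minus Control, and the vertical axis is that of its summed related pseudogene rows. Most points lie along the rising diagonal, and Rps27a (1.13 and -1.13) lies apart at the lower right.

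Among the properties measured, Spearman's rho with the members' log2 difference was largest in size for the mean value per kb. Across the 87 members Spearman's rho with the log2 difference was -0.48 for the mean value per kb, -0.16 for transcript length, 0.10 for GC content and 0.13 for the share of 100-base stretches found in other transcripts. For coding length it was -0.20 across 82 members. The members share libraries, so these are descriptions. In 3 bins of 29 members by value per kb, low to high, the median log2 difference was 0.59, 0.30 and 0.06, against 0.01, -0.06 and 0.02 for all genes in the same ranges. In bins by GC content, low to high, it was 0.26, 0.30 and 0.46, against -0.17, 0.09 and 0.29 for all genes in the same ranges. In bins by transcript length, low to high, it was 0.46, 0.43 and 0.20, against 0.16, 0.13 and 0.04 for all genes. With each library's trends on GC content and length removed, the members' median was 0.13 and 56 of 87 lay above 0 (64.4%, against 47.2% of all genes).

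Other genes of the same process gave a mixed picture, and limma called 0 of them. Of 18 translation factors whose messages are also TOP messages or known to be co-regulated, 10 were higher and 8 lower, with a median log2 difference of 0.09. Eif3k and Eif3h had the smallest unadjusted limma p among these 18. Both were lowest in Controls 2 and 3, with log2 differences of 0.73 (SE 0.41) and 0.46 (SE 0.32). Eef1a1, the elongation factor that delivers tRNA, had 146763, 102517 and 94987 in SF 8w-SR 2w mice, against 123804, 103624 and 83775 in Control mice. The other ribosome components had 15797, 12816 and 9866 in SF 8w-SR 2w mice, against 15407, 13171 and 10007 in Control mice for Rack1, a scaffold on the small subunit, and 5542, 6404 and 3415 in SF 8w-SR 2w mice, against 5769, 5264 and 4894 in Control mice for Fau, which encodes a small subunit protein fused to a ubiquitin-like protein. Both overlap between the groups, and the 4 genes of that list had a median of 0.18.

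Of 54 ribosome biogenesis genes, 28 were higher and 26 lower, with a median of 0.02. Gar1, of the particles that modify ribosomal RNA, had 143, 163 and 107 in SF 8w-SR 2w mice, against 86.3, 33.9 and 36.8 in Control mice, without overlap and with a log2 difference of 1.49 (SE 0.48) and a limma adjusted p of 0.697. Nop10, its partner, had 893, 615 and 493 in SF 8w-SR 2w mice, against 856, 137 and 116 in Control mice, low in Controls 2 and 3 only. Of 15 genes of ribosomal RNA transcription 9 were higher and 6 lower (median 0.24), and of 20 genes of mTORC1 and TOP control 9 were higher and 11 lower (median -0.05). Larp4, a protein that binds messenger RNA, had 1356, 1311 and 1994 in SF 8w-SR 2w mice, against 1524, 3329 and 3174 in Control mice. The 6 transcription factors of ribosomal protein genes had a median of -0.32, with 1 higher and 5 lower, and Sp1, which binds GC-rich promoter elements, had 1598, 2046 and 2169.6 in SF 8w-SR 2w mice, against 1854, 3415 and 3809.8 in Control mice. Larp4 and Sp1 were high in Controls 2 and 3, the libraries in which many members were low. Akt1s1, an inhibitory subunit of mTORC1 and the gene of its list with the smallest p, went the other way, with 1124, 941 and 683 in SF 8w-SR 2w mice, against 859, 415 and 443 in Control mice and a log2 difference of 0.73 (SE 0.34). Of the most abundant genes of that list, Eif4ebp2 was high and Eif4g1 lowest in Controls 2 and 3.

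Mitochondrial ribosomal protein genes, whose products form the separate ribosome of the mitochondrion, had a median close to that of the members. Of 77, 67 were higher and 10 lower, with a median of 0.30 and 0 called by limma. Their median deviations were 0.45, 0.16 and -0.05 in SF 8w-SR 2w mice, against 0.50, -0.47 and -0.48 in Control mice, again with Control 1 at the level of the SF 8w-SR 2w mice. Mrps21, of the small mitochondrial subunit, had 772, 537 and 531 in SF 8w-SR 2w mice, against 810.0, 21.5 and 18.9 in Control mice, a log2 difference of 3.08 (SE 1.18). Mrpl30, of the large one, had 1981, 1246 and 1114 in SF 8w-SR 2w mice, against 2148, 899.8 and 897 in Control mice, a log2 difference of 0.22 (SE 0.38).

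Of the fits run, members passed the threshold only in those that left out Control 1 alone. In limma without it, 19 members were called, all higher (21.8%, against 2.53% of all genes called higher), 14 of the large and 5 of the small subunit. Their log2 differences ran between 1.27 for Rpl23 and 3.41 for Rpl23a, with limma adjusted p between 0.0174 and 0.04998. Of the genes described above, Rpl7a (3.06), Rpl23a (3.41), Rpl28 (2.70), Rpl36a (2.54), Rpl21 (3.02), Rpl27a (1.97), Rps28 (3.23), Rpl11 (1.66), Rps24 (1.56) and Rps4l (1.70) were among them. Rps27a, at 1.18 with a limma adjusted p of 0.0593, and Rpl17, at -1.10 with 0.0516, were not. With GC and length trends also removed, 12 members were called, all higher (13.8%, against 0.728% of all genes). Without Controls 2 and 3 instead, limma called 0 members and 0% of all genes, and no member had an unadjusted p under 0.05.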

How the data were processed

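RNA sequencing libraries of inguinal fat from 3 SF 8w-SR 2w and 3 Control mice were analysed from the table the authors deposited. Per the submitters' processing notes, the processing named CASAVA, featureCounts 1.5.0-p3 and HISAT2 2.0.5 and the build mm8. The deposited unit is a signal, reads per gene scaled by a size factor of the library. Expressed in units of the value of 1 read, it gave whole reads for 100% of values (tolerance 0.02), from 15610201 to 19703569 per library. Because these are not raw counts, limma 3.58.1 (R 4.3.3) with an intensity trend was run on log2(value + 1) over 22290 genes whose mean was at least 1, and p-values were adjusted over them by Benjamini-Hochberg (FDR 0.05). Fold changes on this scale understate those of low genes. edgeR 4.0.16 and DESeq2 1.42.0 on recovered reads were alternatives, and DESeq2 gave 22172 adjusted p-values, the rest being NA. The fit was tested on simulated counts with planted fold changes. The simulation held no shift shared by many genes in Controls 2 and 3, so it does not show how the fit behaves with one. No strandedness or handling of multiply mapped reads is given in the sources used here.

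Symbols came from a name table, which left 33 identifiers unmatched. Transcript length, coding length (annotated coding exons), GC content and pseudogene relations (at least 50 shared stretches of 40 bases) came from GENCODE M21 on GRCm38, and start regions from RefSeq on GRCm38.p6. These differ from mm8, so no coordinates of the counted features are given. The members, the lists and the tests were chosen with earlier results of these data known. Genes named were the 10 members with the smallest unadjusted p, the 5 with the lowest difference, the 5 highest per kb, paralog pairs, stalk genes, Rpsa, Rps6, Rpl5 and Rpl11; for other lists, 2 by smallest p and 2 by level were the candidates. For genes outside this rule the text states that the choice followed the values. Alternatives covered filter, pseudocount, scaling, test, replicate block, each mouse left out, marker scores, and GC and length trends. Leaving out Controls 2 and 3 and adding pseudogene rows were chosen after seeing the data.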

Additional observations from a re-analysis of the deposited data

How the results depend on the processing

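The count of 0 members and 0 genes called held for a minimum mean of 10, no filter, a pseudocount of 0.1, library size and TMM scaling, edgeR with both scalings, DESeq2, limma-voom with quality weights, the replicate block, the B cell marker score, GC and length trends removed, added pseudogene rows and the libraries highest in muscle markers left out. With each mouse left out in turn, it was between 0 and 19 for members and between 0 and 844 for all genes, with calls made without Control 1 alone; with GC and length trends also removed there, it was 12 and 265. The cause was not tested. With 1 mouse left out, limma assumes that the remaining mice share 1 spread, and without Controls 2 and 3 the lone Control is assumed to vary like the other group.

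The replicate numbers were not taken to pair mice, because no label says that they do. Deviations of same-numbered mice correlated at 0.18, 0.39 and 0.04, and 4 of 6 samples correlated best with their own number. These values do not settle whether the numbers pair mice. The replicate block gave 0 calls, the same medians (0.35 for the members), and 28 members higher (32.2%, against 6.1% of all genes) and 3 lower (3.45%, against 5.9%) at an unadjusted p under 0.05.

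The members' median, 0.35, was between 0.11 and 0.55 under the alternatives in scaling, filter, test or covariate that kept every Control and SF 8w-SR 2w mouse or left out the muscle-rich libraries, and 0.0743 to 0.61 with 1 mouse left out. Those of the large and small subunit were 0.12 to 0.58 and 0.0153 to 0.64 with 1 mouse left out. Without Controls 2 and 3 the medians were -0.29 for the members, -0.27 for the large and -0.29 for the small subunit. The large minus small difference of medians, -0.0618, was -0.11 to 0.10 with 1 mouse left out, above 0 without Control 3 or SF 8w-SR 2w 1, and 0.0268 without Controls 2 and 3.

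Among named members, those called without Control 1 had these ranges with 1 mouse left out: Rpl7a (1.62 to 3.06), Rpl36a (1.24 to 2.54), Rpl28 (1.18 to 2.70), Rpl23a (1.16 to 3.41), Rpl27a (0.80 to 1.97), Rpl21 (1.29 to 3.02), Rps24 (0.41 to 1.56), Rps4l (0.65 to 1.70) and Rpl11 (0.72 to 1.66). Members near 0 that changed sign had Rps4x (-0.30 to 0.0629), Rpl7 (-0.13 to 0.25), Rplp1 (-0.29 to 0.33), Rplp0 (-0.17 to 0.24), Rpl22 (-0.0145 to 0.50), Rpl22l1 (-0.089 to 0.61), Rps27 (-0.26 to 0.32), Rplp2 (-0.0621 to 0.51), Rpsa (-0.18 to 0.26), Rps6 (-0.21 to 0.25), Rpl5 (-0.0415 to 0.39) and Rpl10 (-0.15 to 0.38). Without Controls 2 and 3 the sign changed for Rpl36a (-0.0466), Rpl28 (-0.23), Rpl23a (-0.48), Rpl27a (-0.16), Rpl21 (-0.31), Rplp1 (-0.49), Rplp0 (-0.17), Rps24 (-0.41), Rpl10 (-0.0297), Rpl22 (-0.38), Rpl22l1 (-0.45), Rpl7 (-0.38), Rpl7l1 (-0.0874), Rps27 (-0.44), Rps27l (-0.49), Rps4l (-0.29), Rplp2 (-0.13), Rpsa (-0.25), Rps6 (-0.13), Rpl5 (-0.22) and Rpl11 (-0.22). With GC and length trends removed it changed for Rplp1 (-0.35), Rplp0 (-0.36), Rpl10 (-0.0305), Rpl7 (-0.10), Rps27 (-0.0654), Rplp2 (-0.15), Rpsa (-0.34) and Rps6 (-0.13), and with Control 1 also left out for Rplp1 (-0.23), Rplp0 (-0.42), Rpl10 (-0.0113), Rplp2 (-0.12), Rpsa (-0.34) and Rps6 (-0.12). Without the muscle-rich libraries it changed for Rplp0 (-0.13), Rpl10 (-0.16), Rpl22 (-0.0303), Rpl3l (-0.0326), Rpl7 (-0.18), Rplp2 (-0.0115), Rpsa (-0.082) and Rps6 (-0.17), and with the B cell score for Rplp1 (-0.0168), Rpl7 (-0.0663), Rps27 (-0.11) and Rps6 (-0.0012). Rplp1 had -0.0049 by DESeq2 and by edgeR with DESeq2 size factors, and Rps4x had 0.0295 with library size scaling. Per kb of coding length Rpl39 (40902) and Rpl41 (35408) joined the 5 highest, Rplp1 (38118) fell behind Rpl39, and Rps24 and Rpl26 left. The cause of these changes was not tested. Rps27a and Rpl17 kept their directions under every alternative run.

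How far depth limits these comparisons was not tested. Reads shared with pseudogenes limit what a single member's value can show.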
